A study of Mus musculus with 13 samples.

Results

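Mucus goblet cells of the mouse colon, marked by Zg16 and Clca1, were picked from single-cell RNA sequencing of sorted colon epithelium. The cells came from germ-free C57BL/6J mice, which carry no microbes, and from wild type C57BL/6J mice given antibiotics. The sources used here do not name the antibiotics, the doses or the age of the mice. Cells of each condition were pooled before sorting, so each condition is 1 pool. EPCAM-positive, CD45-negative cells were sorted to equal numbers of CD44-positive (proliferative) and CD44-negative (differentiated) cells and sequenced with a droplet 3' kit. The 2 germ-free libraries carry the label batch 2 and the 3 antibiotic libraries batch 1, so each difference between the conditions is also one between batches, and the 2 cannot be told apart. There is no replicate error and no p-value; all intervals are 95% intervals that cover counting error only.

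A cell was counted as a mucus goblet cell by 3 conditions. It had at least 500 detected genes. Its Muc2, Fcgbp and Zg16 values summed to at least 30 UMI (unique molecule counts) per 10000 UMI of the cell, called the gate sum here. Its UMI of Zg16 and Clca1 together exceeded its UMI of Kit and Reg4 together. The rule selected 132 of 4183 cells, or of 3618 cells with enough genes. These are 64 of 667 germ-free cells and 68 of 2951 antibiotic cells. A further 14 germ-free and 103 antibiotic cells passed the gate without an excess of Zg16 and Clca1, and are called other goblet-gated cells. The 6 genes of the rule chose the cells, so their levels describe the selection and support nothing.

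Goblet cells secrete the gel that separates bacteria from the colon epithelium. Muc2 is the gel-forming mucin and is heavily O-glycosylated in the Golgi. Fcgbp, Clca1 and Zg16 are secreted with it: Fcgbp binds to the mucin network, Clca1 is a metalloprotease that processes mucus, and Zg16 is a lectin that binds the wall of Gram-positive bacteria. Tff3, a trefoil peptide, is secreted with the mucus and acts in epithelial repair. Kit and Reg4 mark deep crypt secretory cells, which sit beside the stem cells at the crypt base and also make Muc2.

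In the mouse genome (GRCm38/mm10, GENCODE vM21), the 5 markers are protein-coding genes. Zg16 lies at chr7:127050156-127087328 on the minus strand, and Clca1 at chr3:145003817-145032776 on the minus strand. Fcgbp lies at chr7:28071236-28120862 on the plus strand. Muc2 lies at chr7:141690340-141754693 on the plus strand, and Tff3 at chr17:31125306-31129646 on the minus strand. The promoters of Fcgbp and Muc2, both gate genes, are shown, and both hold the same E-box. Those of Zg16, Clca1 and Tff3 were not available here and were not analysed. Capitals mark CAGCTG, a core that basic helix-loop-helix factors such as Atoh1 can bind. Each sequence is the 250 bases before the start of the gene (RefSeq, GRCm38.p6), at chr7:28070986-28071235 for Fcgbp and at chr7:141690090-141690339 for Muc2, both on the plus strand.
Fcgbp: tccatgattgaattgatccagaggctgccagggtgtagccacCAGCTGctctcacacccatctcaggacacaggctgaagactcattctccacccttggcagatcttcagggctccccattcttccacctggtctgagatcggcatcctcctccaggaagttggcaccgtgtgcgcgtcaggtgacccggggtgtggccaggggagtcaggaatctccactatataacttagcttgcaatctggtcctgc
Muc2: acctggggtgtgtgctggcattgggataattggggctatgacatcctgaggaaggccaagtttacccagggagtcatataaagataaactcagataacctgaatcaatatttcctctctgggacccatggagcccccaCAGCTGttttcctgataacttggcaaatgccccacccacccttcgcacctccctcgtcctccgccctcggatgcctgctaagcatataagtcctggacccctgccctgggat
The E-box spans positions -208 to -203 before the Fcgbp start and -112 to -107 before the Muc2 start. It reads the same on both strands, and 13% of 32851 mouse promoter windows hold it. TATAAA, the TATA box, occurs on the plus strand of the Muc2 window at -174 to -169, and in 12.37% of windows on either strand. The letters TGTTTAC (FOXA) and TTTATNG (CDX), searched on both strands, are in neither window; they occur in 3.166% and 9.811% of windows. A match is a description and not a binding site.

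Cell names end in a number, and the 5 numbered parts of the data are called cell sets. Germ-free cell sets 3 and 4 held 24 and 40 mucus goblet cells, and antibiotic cell sets 1, 2 and 3 held 10, 27 and 31. Germ-free cells were the shallower. Their median depth was 1443 and 3648 UMI in cell sets 3 and 4, against 6615, 7876 and 9411 UMI in antibiotic cell sets 1, 2 and 3. In germ-free cell set 3 a single UMI was worth 24.84 CPM, the count scaled to 1000000 UMI of the summed cells, so lower genes could go undetected there. Antibiotic cell sets shared cell barcodes: 315 between cell sets 1 and 2, 501 between 2 and 3, and 48 between 1 and 3. The deeper copy of a barcode had a median of 16.06, 9.732 and 27.8 times the UMI of the other copy in these pairs. Among mucus goblet cells, 21 antibiotic cells shared a barcode. The 68 antibiotic cells had 61 distinct barcodes, and 9 of these cells were the shallower copy of a barcode and were left out where 1 cell per barcode was kept. No barcode was shared between germ-free cell sets or between conditions. Values with 1 cell per barcode are given beside the main counts.

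Most of the cells carried the goblet markers. All 5 markers (Zg16, Clca1, Fcgbp, Muc2 and Tff3) were detected in 50 of 64 germ-free and 36 of 68 antibiotic mucus goblet cells. At least 3 were detected in all but 1 germ-free and 5 antibiotic cells. The markers summed to more UMI than 11 colonocyte markers in 63 of 64 germ-free cells and 60 of 68 antibiotic cells. In the summed cells the goblet markers reached 65110 and 50700 CPM in cell sets 3 and 4 of the germ-free pool, and 14720, 25290 and 29310 CPM in cell sets 1, 2 and 3 of the antibiotic pool. Cells outside the goblet gate were at 523.5 CPM in the germ-free pool and 250.8 CPM in the antibiotic pool. The rule used all of these markers but Tff3, so these counts and sums describe the selection. Tff3 alone was at 7344 CPM in germ-free mucus goblet cells, against 188.5 CPM outside the gate. In the antibiotic pool it was at 2642 CPM, or 1207 CPM without the cell with the most Tff3 UMI, against 48.56 CPM outside.

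Colonocyte markers were present at a lower level than outside the gate. Other markers had low sums, and that of the enteroendocrine markers was above its level outside the gate. The 11 colonocyte markers summed to 3929 CPM in germ-free and 3618 CPM in antibiotic mucus goblet cells, against 12050 and 19780 CPM outside the gate; all 11 were detected in both pools of mucus goblet cells. Per cell set they ran from 3911 to 4024 CPM in germ-free and from 1483 to 4439 CPM in antibiotic cells. Of 9 enteroendocrine markers, 5 were at 0 in germ-free and 7 in antibiotic cells, including Chga in both, and the sum was 56.25 and 92.0 CPM. Outside the gate the enteroendocrine sum was 44.64 CPM in germ-free and 21.06 CPM in antibiotic cells. The 7 tuft, 8 immune and 5 stromal markers summed to between 1.243 and 8.035 CPM in either pool, with Dclk1, Ptprc, Cd3e, Col1a1 and Col3a1 at 0 in both. The 4 stem cell markers summed to 48.21 CPM in germ-free and 21.13 CPM in antibiotic cells, against 50.91 and 35.59 CPM outside the gate.

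**Figure D1:**
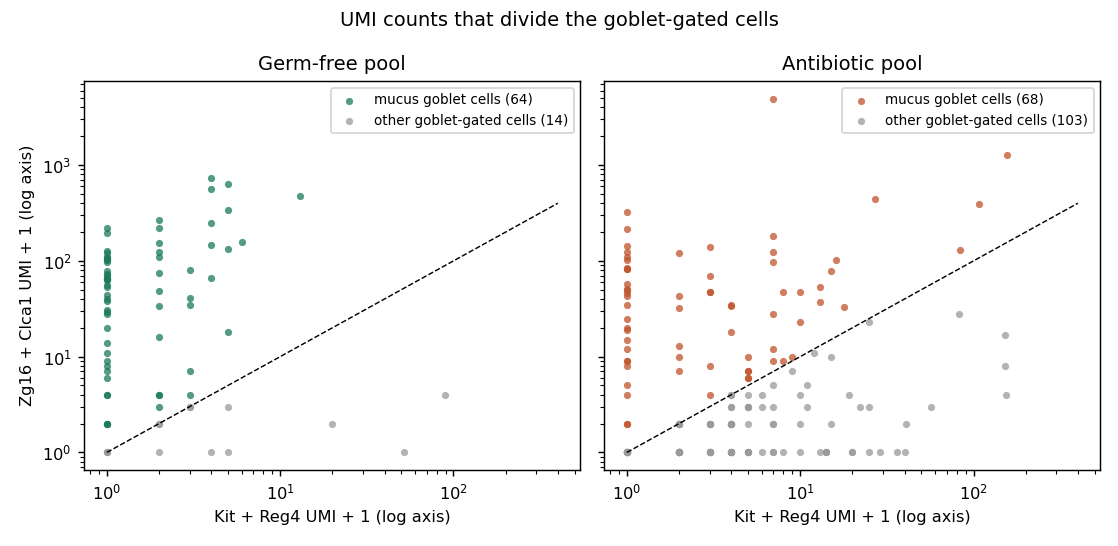
UMI counts that divide the goblet-gated cells, 1 point per cell, with Zg16 and Clca1 together on the vertical axis and Kit and Reg4 together on the horizontal axis, each plus 1 on log axes; the germ-free pool is on the left and the antibiotic pool on the right. Coloured points above the dashed line of equality are the 64 germ-free and 68 antibiotic mucus goblet cells, and grey points are the 14 and 103 other goblet-gated cells.

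Most mucus goblet cells lay far from the dividing line. Kit and Reg4 were both at 0 in 36 of 64 germ-free and 27 of 68 antibiotic cells. The median Zg16 and Clca1 count was 62.5 UMI in germ-free and 35 UMI in antibiotic cells. The margin was a single UMI in 5 germ-free and 7 antibiotic cells, and these cells could have fallen on the other side by counting error. Of the other goblet-gated cells, 7 germ-free and 18 antibiotic cells had equal counts on both sides of the rule. Kit and Reg4 reached 20 UMI or more in 4 antibiotic mucus goblet cells and in no germ-free one, so a few antibiotic cells carried many UMI of both gene pairs. The cells nearest to the threshold of 30 had gate sums of 31.39 to 47.03 (germ-free) and 33.43 to 39.32 (antibiotic) inside it, with 5 cells in each. The nearest cells outside had 25.45 to 29.95 and 26.37 to 28.08.

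Mucus goblet cells made up 9.595% of germ-free kept cells (exact Clopper-Pearson interval 7.468 to 12.09) and 2.304% of antibiotic kept cells (1.794 to 2.912). The share was 11.59% and 8.696% in germ-free cell sets 3 and 4, against 1.445%, 2.747% and 2.429% in antibiotic cell sets 1, 2 and 3. Both germ-free cell sets were above all 3 antibiotic ones. The minimum of 500 genes left out 99 of 306 and 2 of 462 cells in germ-free cell sets 3 and 4. In antibiotic cell sets 1, 2 and 3 it left out 140 of 832, 166 of 1149 and 158 of 1434 cells. With 1 cell per barcode the antibiotic share was 2.43%. Both pools were sorted to a fixed ratio of CD44-positive to CD44-negative cells, so these are shares of sorted cells and not of the colon, and a part of the sort in their difference was not tested.

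Among cells past the goblet gate the share of mucus goblet cells was 82.05% in the germ-free pool (71.72 to 89.83) and 39.77% in the antibiotic pool (32.37 to 47.52). It was 92.31% and 76.92% in germ-free cell sets 3 and 4, against 28.57%, 39.71% and 45.59% in antibiotic cell sets 1, 2 and 3. The cell sets of the conditions did not overlap. The antibiotic share was 40.4% with 1 cell per barcode. When every cell was thinned to 1000 UMI the shares were 77.2% in germ-free and 43.9% in antibiotic cells.

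The gate sum was higher in the germ-free cells. Its median was 405.5 UMI per 10000 in germ-free cells, with quartiles of 157.9 and 619.7, and 106.3 in antibiotic cells, with quartiles of 64.67 and 171.8. Medians were 508.4 and 333.5 in germ-free cell sets 3 and 4, and 97.61, 114.6 and 98.59 in antibiotic cell sets 1, 2 and 3. A gate sum of 500 or more was reached by 28 of 64 germ-free cells and 4 of 68 antibiotic cells. Sums under 100 were found in 11 germ-free and 32 antibiotic cells, so the antibiotic cells lay closer to the threshold that selected them.

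**Figure D2:**
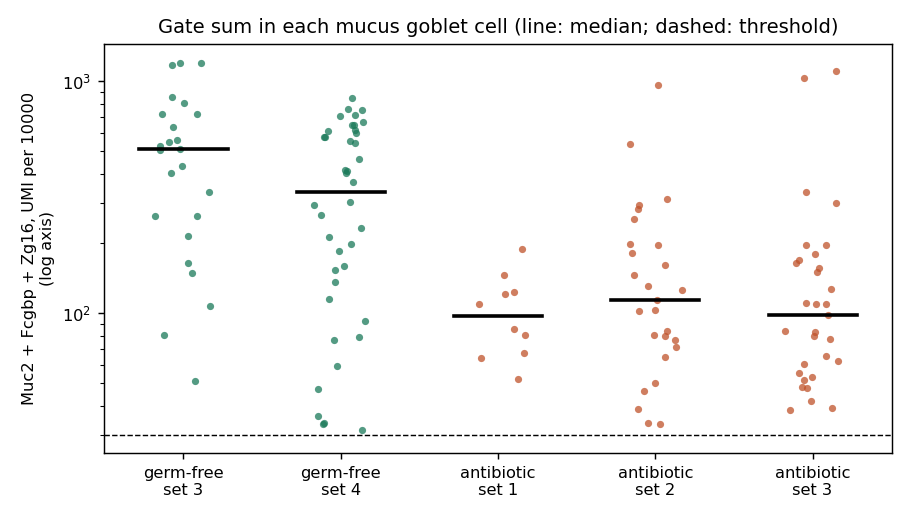
Gate sum of each mucus goblet cell (Muc2, Fcgbp and Zg16, UMI per 10000 UMI of the cell, log axis) by cell set, with the median as a black bar and the threshold of 30 dashed. Germ-free medians are 508.4 and 333.5, above the 3 antibiotic medians of 97.61, 114.6 and 98.59, while single antibiotic cells reach 1111.

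Zg16 took the most UMI of the 5 markers in both pools, though not in every cell set. It stood at 32170 and 20500 CPM in cell sets 3 and 4 of the germ-free pool, and at 3482, 11250 and 14990 CPM in cell sets 1, 2 and 3 of the antibiotic pool. In antibiotic cell set 1 Muc2 was above Zg16, at 7120 CPM. One antibiotic cell in cell set 3 held 4660 of the 9411 Zg16 UMI of the antibiotic cells, and Zg16 and Clca1 took 10.12% of its 48720 UMI. Without that cell Zg16 was at 3076 CPM in cell set 3, where Muc2 was at 4576 CPM with all cells. Levels per cell are therefore given as well: the median cell had 161.1 Zg16 UMI per 10000 in the germ-free pool and 42.76 in the antibiotic pool. The pooled log2 ratio of germ-free over antibiotic, computed on CPM + 10, was 0.94, and 1.83 without that cell.

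Clca1 reached 6011 and 4477 CPM in cell sets 3 and 4 of the germ-free pool, against 1527, 637.6 and 1447 CPM in cell sets 1, 2 and 3 of the antibiotic pool. All germ-free values were above all antibiotic ones, at a log2 ratio of 2.01 in the pools. The median cell had 36.37 Clca1 UMI per 10000 in the germ-free and 5.145 in the antibiotic pool. After thinning to 1000 UMI, which left out 3 germ-free and 2 antibiotic cells, a Clca1 UMI was found in 73.77% of germ-free and 50% of antibiotic mucus goblet cells (89.06% and 77.94% before thinning). Outside the goblet gate the thinned shares were 3.08% in germ-free and 1.818% in antibiotic cells, at median depths of 3518 and 8614 UMI. For Zg16 the thinned shares were 90.16% in germ-free and 74.24% in antibiotic mucus goblet cells, against 16.3% and 10.5% outside the gate.

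Fcgbp was at 7527 and 9030 CPM in cell sets 3 and 4 of the germ-free pool, and at 1240, 4556 and 4410 CPM in cell sets 1, 2 and 3 of the antibiotic pool. Muc2 was more even, with 8570 and 10020 CPM in the germ-free cell sets and 7120, 7234 and 4576 CPM in the antibiotic ones. Median levels per cell were 85.32 in germ-free and 19.89 in antibiotic cells for Fcgbp, and 72.66 and 31.35 UMI per 10000 for Muc2. Muc2 was detected in every germ-free cell, while 7 antibiotic cells had no Muc2 UMI and passed the gate on Zg16 and Fcgbp. Muc2 UMI outnumbered Zg16 UMI in 21 of 64 germ-free and 30 of 68 antibiotic cells, so the ratio of mucin to lectin transcripts differed from cell to cell.

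**Figure D3:**
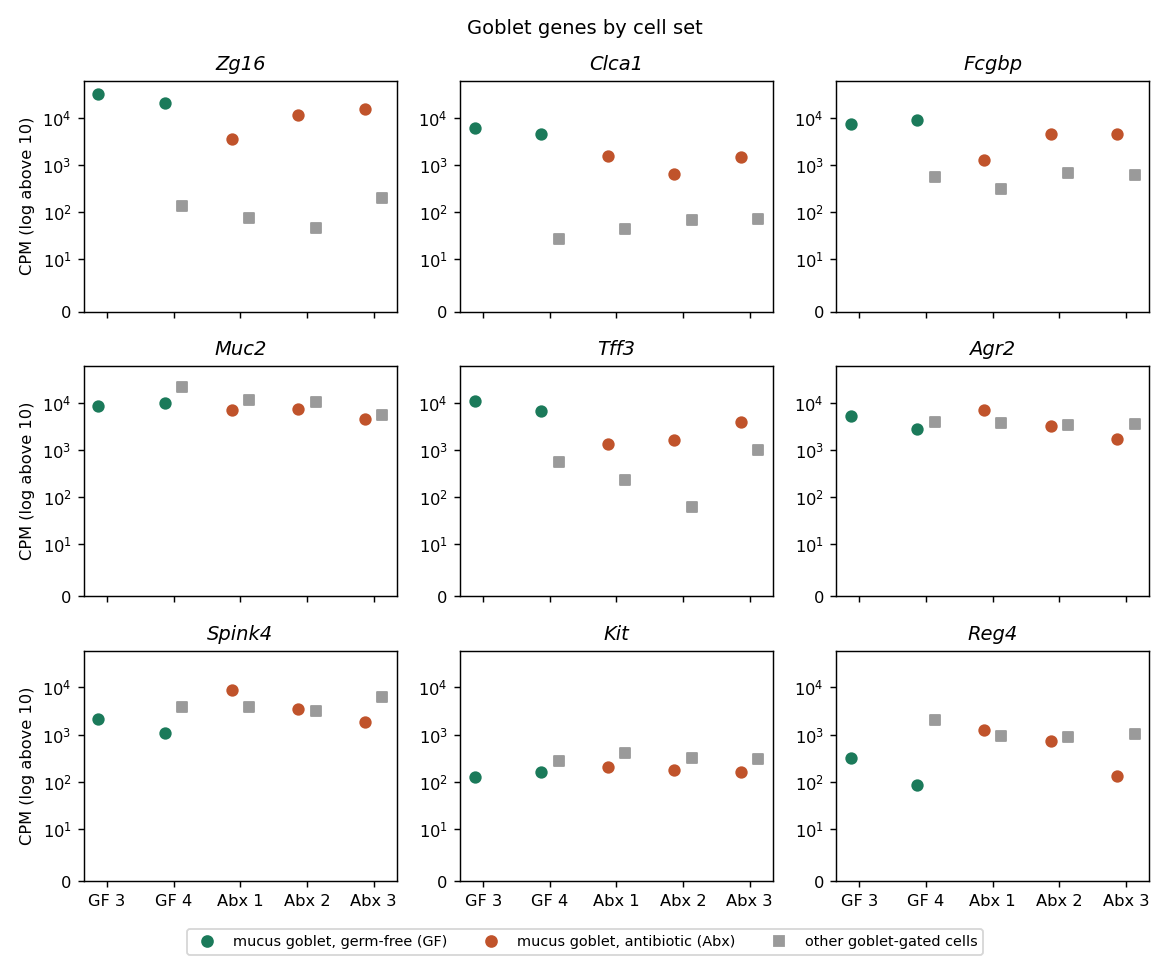
Level of 9 goblet genes by cell set (CPM of summed UMI, linear below 10 and logarithmic above). Circles are mucus goblet cells, germ-free (GF) in green and antibiotic (Abx) in orange; grey squares are other goblet-gated cells, drawn where a cell set has at least 10. Zg16 and Clca1, which the rule used, separate circles from squares in every cell set that has squares. Tff3, which the rule did not use, lies higher in the circles there, in antibiotic cell set 3 through 1 cell.

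The comparison of germ-free with antibiotic mucus goblet cells set mice that never carried microbes against mice whose microbes were exposed to antibiotics. A gene was called higher or lower when its log2 ratio of (CPM + 10) was at least 1 in size, which is 2-fold, and both germ-free cell sets lay on the same side of all 3 antibiotic ones. Genes needed 50 UMI over both pools and 50 CPM in the higher one. Of 3544 genes, 64 were called higher (1.81%) and 95 lower (2.68%), or 4.49% in either direction, with the 6 genes of the rule left out. Without regard to size, both germ-free cell sets lay above all 3 antibiotic ones for 12.7% of genes and below them for 11.9%. With 1 cell per barcode the counts were 66 and 87, and 147 of the 159 calls were among them. Thinning all cells to 1000 UMI gave 31 higher and 17 lower calls, and 18 of the 159 calls were among them. A gate sum threshold of 100 gave 48 higher and 70 lower calls, with 54 of the 159 among them. Leaving out 1 cell set kept 57 to 121 of the 159, the fewest without antibiotic cell set 3. The stricter cells defined under the processing kept 64, and median-of-ratios scaling kept 147. A count near the main one therefore does not show that the same genes were called.

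Tff3 had the largest increase among the measured goblet products outside the rule. It stood at 10830 and 6672 CPM in cell sets 3 and 4 of the germ-free pool, against 1350, 1610 and 3895 CPM in cell sets 1, 2 and 3 of the antibiotic pool. The groups did not overlap, and the ratio of the pools was 2.78 (2.61 to 2.961). The Zg16-rich antibiotic cell alone held 57.08% of the antibiotic Tff3 UMI, and without it the log2 ratio was 2.6 in place of 1.47. Tff3 kept its call under all 18 alternatives. Outside the goblet gate Tff3 was at 188.5 CPM in germ-free and 48.56 CPM in antibiotic cells, a log2 ratio of 1.76. Thinned to 1000 UMI, 78.69% of germ-free and 48.48% of antibiotic mucus goblet cells had a Tff3 UMI (93.75% and 80.88% before thinning), against 15.94% and 5.009% outside the gate.

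Bcas1, whose protein is found in goblet cells and in oligodendrocytes, was the other goblet product called higher. It had 621 and 565.6 CPM in cell sets 3 and 4 of the germ-free pool, and 162.3, 289.5 and 285.2 CPM in cell sets 1, 2 and 3 of the antibiotic pool. Outside the gate it was at 4.058 CPM in germ-free and 4.148 CPM in antibiotic cells. Its log2 ratio of 1.08 became 0.98 without antibiotic cell set 1, which ended the call. Of 8 measured goblet products outside the rule, 2 were higher, none was lower and 6 were not called, with a median log2 ratio of -0.23 against 0.01 over all genes tested. The median cell had 15.09 Agr2 UMI per 10000 in the germ-free pool and 7.148 in the antibiotic pool; Agr2 is the disulfide isomerase that folds mucins. Its summed level was 3082 CPM in germ-free and 3150 CPM in antibiotic cells. Spink4, a secreted protease inhibitor, had 2161 and 1107 CPM in the germ-free cell sets, and 8928, 3422 and 1819 CPM in the antibiotic ones; its groups overlapped.

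Of 22 measured genes that build mucin O-glycans, 1 was higher and none lower, near the 4.49% called over all genes, with a median log2 ratio of 0.16. That gene was Gcnt3, a core 2 and core 4 branching enzyme, at 301.3 CPM in germ-free and 140.5 CPM in antibiotic cells. It lost its call in 6 of 18 alternatives, among them leaving out germ-free cell set 3 or antibiotic cell set 1 or 3 (log2 ratios of 0.98, 0.87 and 0.78). None of 30 measured genes of secretion and the unfolded protein response was called in either direction, and their median log2 ratio was 0.09. Hspa5, the main chaperone of the endoplasmic reticulum, was at 510.3 CPM in germ-free and 431.4 CPM in antibiotic cells.

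Rab27b, a small GTPase that docks secretory granules, was the only one of 11 measured exocytosis genes called, and it was higher. It had 819.7 and 536.8 CPM in cell sets 3 and 4 of the germ-free pool, and 221.3, 224 and 319.5 CPM in cell sets 1, 2 and 3 of the antibiotic pool. The ratio was 2.169 (1.746 to 2.69); the log2 ratio of 1.09 became 0.97 without germ-free cell set 3 and 0.96 without antibiotic cell set 2, which ended the call. Outside the gate Rab27b was at 24.72 CPM in germ-free and 30.08 CPM in antibiotic cells.

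Regulators of secretory fate gave 1 call in 8 measured genes. Elf3, an epithelial ETS factor, was lower, at 172.8 CPM in germ-free and 356.8 CPM in antibiotic cells, and its call, at a log2 ratio of -1.01, ended in 9 of 18 alternatives, among them leaving out germ-free cell set 4 (-1.0) or antibiotic cell set 2 (-0.74). Klf4, which is needed for terminal goblet differentiation in the mouse colon, had 1416 and 953.8 CPM in cell sets 3 and 4 of the germ-free pool, against 479.6, 703.1 and 459.5 CPM in cell sets 1, 2 and 3 of the antibiotic pool. The groups did not overlap, but the pooled log2 ratio of 0.89 was under the limit. Atoh1, the factor that starts the secretory lineage, was at 128.6 CPM in germ-free and 96.97 CPM in antibiotic cells.

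Antimicrobial genes were measured for 4 list members, of which 2 were higher and none lower. Reg3b, a lectin against bacteria, had 124.2 and 143.8 CPM in cell sets 3 and 4 of the germ-free pool, and 7.378, 20.68 and 42.25 CPM in cell sets 1, 2 and 3 of the antibiotic pool. Saa1, a serum amyloid A protein made by epithelium, had 173.9 and 139 CPM in the germ-free cell sets, and 0, 41.36 and 58.1 CPM in the antibiotic ones. The groups did not overlap for either gene, although Reg3b rests on 35 germ-free and 23 antibiotic UMI and Saa1 on 36 and 34. Outside the goblet gate Saa1 ran the other way, at 308.4 CPM in germ-free and 509.4 CPM in antibiotic cells, and Reg3b was at 198.5 and 181.7 CPM. Without germ-free cell set 4 or antibiotic cell set 3 fewer than 50 UMI were left and the calls ended, at log2 ratios of 1.8 and 2.51 for Reg3b and 1.81 and 2.02 for Saa1.

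Gip was the gene with the largest increase. It encodes an incretin hormone that is best known from enteroendocrine K cells of the small intestine. It had 99.36 and 268.4 CPM in cell sets 3 and 4 of the germ-free pool, and no UMI in any antibiotic mucus goblet cell. Against a floor of 3 UMI over the antibiotic cells this was at least 64.6-fold higher. Its 60 UMI were spread over 34 of 64 cells, and the same difference was seen outside the gate, at 211.8 CPM in germ-free and 0.116 CPM in antibiotic cells. Fabp1, a fatty acid binding protein, and Reg1, a secreted lectin, also differed both inside and outside the gate. Fabp1 was at 273.2 CPM in germ-free and 62.16 CPM in antibiotic mucus goblet cells, and at 226.9 and 57.09 CPM outside the gate. Reg1 was at 180.8 and 42.27 CPM in mucus goblet cells, and at 179.3 and 29.44 CPM outside. Without germ-free cell set 4 fewer than 50 UMI of Gip and of Reg1 were left and their calls ended, at log2 ratios of 3.45 and 1.61. The 9 enteroendocrine markers summed to 56.25 CPM in germ-free and 92.0 CPM in antibiotic mucus goblet cells, and to 44.64 and 21.06 CPM outside the gate. Cck, Pyy and Neurod1 were detected in germ-free mucus goblet cells and were at 0 in antibiotic ones, while Chgb was at 0 in germ-free cells only. Sct was detected in both pools of mucus goblet cells, at a log2 ratio of -0.988 for germ-free over antibiotic. Gcg, Chga, Tph1 and Insl5 were at 0 in both. The part of these markers in the level of Gip was not tested.

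The other genes among the 10 largest increases were AW112010, Tgm3, AA467197 and Psma5. AA467197 had 372.6 and 220.5 CPM in cell sets 3 and 4 of the germ-free pool, against 66.4, 106.8 and 44.89 CPM in cell sets 1, 2 and 3 of the antibiotic pool. AW112010 had 422.3 and 196.5 CPM in the germ-free cell sets, and 7.378, 93.05 and 58.1 CPM in the antibiotic ones. Tgm3, a transglutaminase, rested on 1 cell, which held 68.18% of its 44 germ-free UMI; without the top cell of each group the log2 ratio was 0.55 in place of 1.74. Psma5, a proteasome subunit, was at 116.5 CPM in germ-free and 33.57 CPM in antibiotic cells on 29 and 27 UMI, and lost its call in 9 of 18 alternatives. These include leaving out germ-free cell set 4, antibiotic cell set 2 or antibiotic cell set 3, at log2 ratios of 1.87, 1.76 and 1.27. Tgm3 lost its call without germ-free cell set 4, at 1.51.

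**Figure D4:**
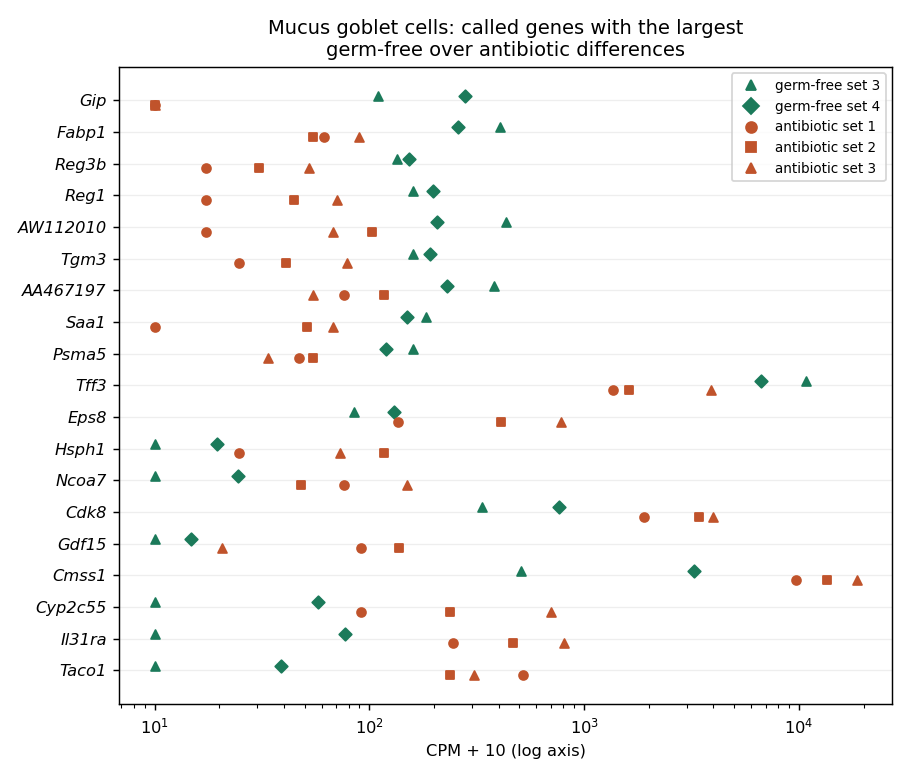
The 10 genes with the largest increases and 9 with the largest decreases in germ-free over antibiotic mucus goblet cells, by cell set (CPM + 10, log axis). Green points are germ-free and orange points antibiotic cell sets; for each gene all green points lie on the same side of all orange points, and Gip is at 0 CPM in the 3 antibiotic cell sets.

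Genes lower in germ-free mucus goblet cells were led by Taco1, Il31ra, Cyp2c55 and Cmss1. Taco1, a translation activator of mitochondria, had 0 and 28.76 CPM in cell sets 3 and 4 of the germ-free pool, and 509.1, 227.5 and 298.4 CPM in cell sets 1, 2 and 3 of the antibiotic pool. Il31ra, a subunit of the interleukin 31 receptor, had 0 and 67.1 CPM in the germ-free cell sets, and 236.1, 454.9 and 792.2 CPM in the antibiotic ones. Cmss1 had 496.8 and 3254 CPM in the germ-free cell sets, and 9643, 13470 and 18700 CPM in the antibiotic ones. Cdk8, a kinase of the Mediator complex, was at 683 CPM in germ-free and 3431 CPM in antibiotic cells.

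The same genes were lower outside the goblet gate: log2 ratios there were -1.99 for Taco1, -2.49 for Il31ra, -2.08 for Cmss1 and -2.16 for Cdk8. Another measure moved with them. The summed share of Gm42418, AY036118 and Lars2 among the UMI of mucus goblet cells was 1.5% and 4.74% in germ-free cell sets 3 and 4, and 3.79%, 7.03% and 10.1% in antibiotic cell sets 1, 2 and 3. Gm42418 and AY036118 overlap ribosomal RNA repeats. The part of this share in the decreases was not tested.

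Cyp2c55, a cytochrome P450 of proximal colon epithelium, had 0 and 47.93 CPM in cell sets 3 and 4 of the germ-free pool, against 81.16, 227.5 and 694.5 CPM in cell sets 1, 2 and 3 of the antibiotic pool. Its log2 ratio of -3.11 became -0.53 at a gate of 100, which ended the call. Outside the goblet gate Cyp2c55 was lower in germ-free cells as well, at 544.6 CPM against 1848 CPM in antibiotic cells, a log2 ratio of -1.745. Of 3 measured proximal colon genes Cyp2c55 was the only one called. Of 3 measured distal genes 1 was called higher: Sycn, a protein of pancreatic secretory granules, at 1043 and 1002 CPM in the germ-free and 649.3, 530.8 and 298.4 CPM in the antibiotic cell sets. Sycn was level outside the gate, at 920.5 CPM in germ-free and 931.8 CPM in antibiotic cells, and its log2 ratio of 1.17 became 0.82 without antibiotic cell set 3, which ended the call. One cell held 33.47% of its UMI in germ-free mucus goblet cells.

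Eps8, an actin regulator, was at 112.5 CPM in germ-free and 527.1 CPM in antibiotic cells. Gdf15, Ncoa7 and Hsph1, a stress cytokine, an oxidation resistance gene and a heat shock protein, had 1, 3 and 2 germ-free UMI against 52, 73 and 57 antibiotic UMI. With 24.84 CPM per UMI in germ-free cell set 3, their zeros there do not show absence. Leaving out antibiotic cell set 3 ended all 3 calls, at log2 ratios of -3.13, -1.37 and -2.28, and leaving out antibiotic cell set 2 ended those of Gdf15 (-1.48) and Hsph1 (-1.75). Gdf15 lost its call without antibiotic cell set 1 as well, at -2.35. Genes of the dissociation response were measured in full: of 12, 1 was lower and none higher, with a median log2 ratio of -0.41. That gene was Jund, at 313.4 CPM in germ-free and 743.4 CPM in antibiotic cells, with the same log2 ratio of -1.22 outside the gate.

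The remaining lists held 1 to 9 measured genes, too few to be read against the 4.49% called over all genes. The lists of goblet products, exocytosis, secretory fate, antimicrobial, proximal colon, distal colon and dissociation genes above were also too short for this. Gsdmc4, a gasdermin, was higher among 6 measured genes of intercrypt goblet cells, the goblet cells of the surface between crypts. One cell held 38.78% of its germ-free UMI, and the log2 ratio of 1.07 became 0.97 without germ-free cell set 3 and 0.96 without antibiotic cell set 3. None of 9 ion transport genes, 4 inflammasome genes, 4 genes of antigen presentation and interferon, 4 genes of nicotinic acid and NAD, and 1 measured proliferation gene was called. The deep crypt list had 1 measured member outside the rule, Cd24a, which was not called. Most members of the proliferation, interferon and nicotinic acid lists were under the filter on low values.

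Of the 64 genes higher in germ-free mucus goblet cells, 50 had a log2 ratio above 0 outside the gate as well, with a median of 0.34, and 12 were 2-fold or more higher there. Of the 95 lower genes, 15 were above 0 outside the gate, the median was -0.34, and 19 were 2-fold or more lower. Over all 3544 genes tested, 52.7% were above 0 outside the gate with a median of 0.02, 23 were 2-fold or more higher and 34 were 2-fold or more lower. Bcas1, Rab27b, Gcnt3, Saa1 and Sycn were level or ran the other way outside the gate, at log2 ratios of -0.01, -0.21, -0.67, -0.71 and -0.02. The difference of these differences was not tested, since each condition is 1 pool.

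The second comparison set mucus goblet cells against the other goblet-gated cells of the same pool, which have Muc2 but no excess of Zg16 and Clca1. The rule drew this line, so all values are a description. A gene was called when its pooled difference was at least 2-fold and had the same direction in every cell set with 10 or more cells of both kinds. In the antibiotic pool all 3 cell sets qualified, and of 3887 genes 105 were higher (2.7%) and 118 lower (3.04%). With 1 cell per barcode there were 108 and 119.

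Spink1, a trypsin inhibitor, had the largest difference in the antibiotic pool. It was at 132.8, 575.6 and 6602 CPM in mucus goblet cells of cell sets 1, 2 and 3, against 19.76, 23.15 and 123.5 CPM in other goblet-gated cells. One cell held 90.65% of its UMI in mucus goblet cells; without the Zg16-rich cell the log2 ratio was 2.22 in place of 5.51, still past the limit. Tff3 was at 1350, 1610 and 3895 CPM in mucus goblet cells, against 229.2, 59.52 and 1008 CPM in the others. Without the Zg16-rich cell its log2 ratio was 1.27, and its call ended because the direction turned in cell set 3, where the remaining mucus goblet cells had 794 CPM against 1008 CPM in the others. Ang4, an angiogenin with antimicrobial activity in mice, had 70 UMI in 13 mucus goblet cells and 1 UMI in the others, a ratio of 82.17 with an interval of 14.27 to 3291. Its call ended without cell set 2 (log2 ratio 3.13) or cell set 3 (3.17).

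Krt20, Slc26a3 and Cyp2c55, all known from differentiated colon epithelium, were higher in the antibiotic mucus goblet cells. Krt20, a keratin of differentiated surface cells, was at 66.4, 120.6 and 158.4 CPM in mucus goblet cells of cell sets 1, 2 and 3, against 19.76, 13.23 and 15.43 CPM in other goblet-gated cells. Slc26a3, the chloride and bicarbonate exchanger of colonocytes, was at 7.378, 72.38 and 140 CPM, and at 0, 0 and 12.86 CPM in the others. Cyp2c55, Hsd3b3, Slc6a14, Emp1 and Slc8a1 were also among the 10 largest increases, with log2 ratios of 3.23, 2.87, 2.46, 3.0 and 3.27. The 11 colonocyte markers summed to 3618 CPM in mucus goblet and 1008 CPM in other goblet-gated cells, which moves with these genes; its part was not tested. Slc26a3, Emp1 and Slc6a14 had fewer than 50 UMI left without cell set 3, which ended their calls at log2 ratios of 2.62, 2.03 and 2.02.

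Of 6 measured intercrypt genes, 2 were higher, Krt20 and Mxd1, and all 6 had log2 ratios above 0, with a median of 0.86 against -0.11 over all genes. The list is too short to be read against the 2.7% called higher over all genes. Against all other kept cells of the antibiotic pool the list ran the other way. Of 8 measured members there, 5 were lower and none was above 0, with a median of -1.135. Mxd1, which opposes Myc during differentiation, was at 159.1 CPM in mucus goblet and 31.77 CPM in other goblet-gated cells. Lypd8, a secreted protein that binds bacterial flagella, was at 553.4, 1637 and 1262 CPM in mucus goblet cells of cell sets 1, 2 and 3, against 268.8, 291 and 506.7 CPM in the others. It kept its call in all 15 alternatives. Lypd8 is also a colonocyte marker. It was at 3870 CPM outside the goblet gate of the antibiotic pool, and was called lower in mucus goblet cells against all other kept cells there. Klf4 was at 550.7 CPM in mucus goblet and 230.9 CPM in other goblet-gated cells; without cell set 2 its log2 ratio was 0.99 in place of 1.22.

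Spdef, which drives goblet maturation, ran the other way from Klf4. It had 36.89, 51.7 and 55.45 CPM in mucus goblet cells of cell sets 1, 2 and 3, against 221.3, 109.1 and 77.17 CPM in the other goblet-gated cells. Its log2 ratio of -1.16 became -0.66 without cell set 1. Ern2, a stress sensor of goblet cells that is also called IRE1-beta, was at 170.3 CPM in mucus goblet and 386.6 CPM in other goblet-gated cells, and its log2 ratio became -0.76 without cell set 2. Both calls ended there. Ddit3, the stress factor CHOP, was at 14.92 and 75.2 CPM. Ern2 and Ddit3 were the only 2 of 32 measured secretion and unfolded protein response genes called, where 3.04% of all genes were lower. Of the 32, 9 had log2 ratios above 0. The median of the list was -0.225, against -0.108 over all genes.

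Of 24 measured O-glycosylation genes, St6galnac6 and Fut4 were lower and none higher, where 3.04% of all genes were lower and 2.7% higher. St6galnac6, a sialyltransferase, was at 162.9 CPM in mucus goblet and 420.5 CPM in other goblet-gated cells, and Fut4, a fucosyltransferase, at 26.11 and 85.79 CPM. Agr2, Klk1, a kallikrein, and Spink4 were not called: Agr2 was at 3150 CPM in mucus goblet and 3498 CPM in other goblet-gated cells, Klk1 at 2270 and 2300 CPM, and Spink4 at 3595 and 4615 CPM.

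The largest decreases were led by Meg3 and Col8a1. Meg3, a long noncoding RNA, was at 0, 0 and 26.41 CPM in mucus goblet cells of cell sets 1, 2 and 3, against 209.5, 129 and 403.8 CPM in the others. Col8a1, a short-chain collagen, was at 118.1, 10.34 and 10.56 CPM, against 308.3, 142.2 and 275.2 CPM. Ptprt, Dlg2, Adgrb3, Ror2, Pdzrn3, Etv5, Arhgap24 and Dync1i1 made up the 10, with log2 ratios between -2.49 and -1.92. The calls of Adgrb3 and Etv5 ended without cell set 1, at -2.16 and -1.53, and that of Adgrb3 without cell set 2, at -1.93. These reads were in few mucus goblet cells: Adgrb3 was in 1 and Meg3 in 2 of 68 cells, and in 16 and 12 of 103 others. The 5 stromal markers had 1 UMI in mucus goblet and 1 UMI in other goblet-gated cells, too few to show a difference, and their part in the level of Col8a1 was not tested.

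**Figure D5:**
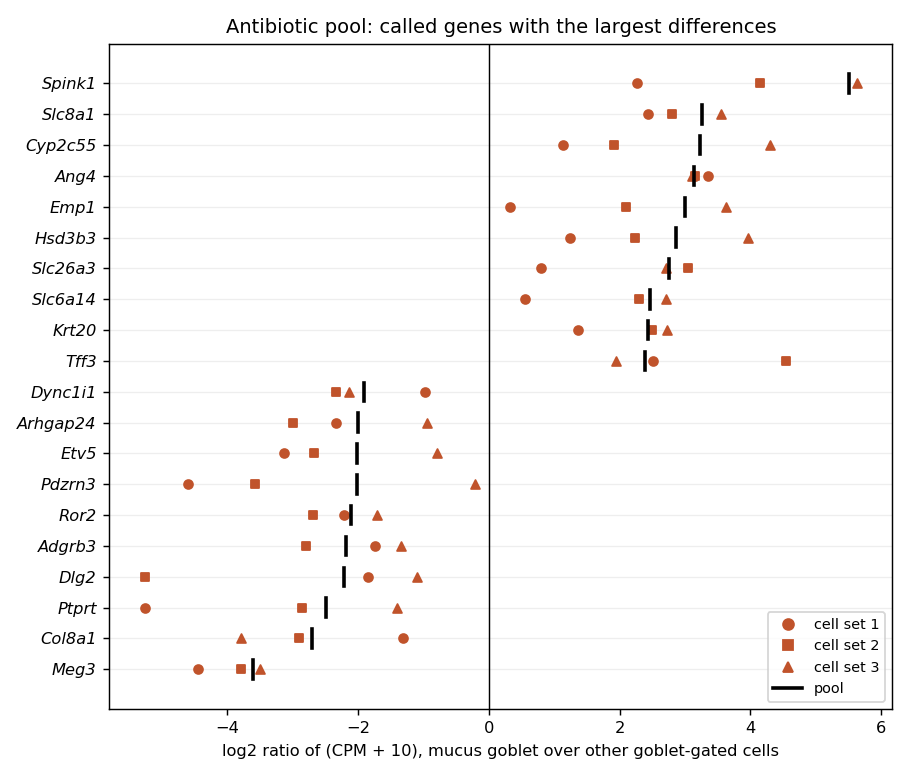
The 10 genes with the largest increases and the 10 with the largest decreases in mucus goblet over other goblet-gated cells of the antibiotic pool, as the log2 ratio of (CPM + 10). Symbols are cell sets 1, 2 and 3 and the black bar is the pool; each gene has the same sign in all 3 cell sets, and for Spink1 the pool value of 5.51 follows cell set 3.

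In the germ-free pool the same contrast rests on 12 other goblet-gated cells of cell set 4, since cell set 3 had only 2. Of 1077 genes, 82 were higher (7.61%) and 33 lower (3.06%). Spink1 again led, with 2253 CPM in mucus goblet cells and 26.75 CPM in other goblet-gated cells of cell set 4. Tff3 was at 6672 and 561.8 CPM in cell set 4, Bcas1 at 565.6 and 173.9 CPM, and Klf4 at 953.8 and 495 CPM. Lypd8 was at 1749 CPM in mucus goblet and 535.1 CPM in other goblet-gated cells and kept its call in all 13 alternatives. Outside the gate of the germ-free pool this colonocyte marker was at 2810 CPM. Spink1, Tff3, Lypd8 and Klf4 were thus called higher in both pools, although Klf4 ended at a log2 ratio of 0.93 in the germ-free pool without cell set 3.

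Other genes called in the germ-free pool were Rep15, a protein that binds Rab15, at 469.7 CPM in mucus goblet and 40.13 CPM in other goblet-gated cells of cell set 4, and Fer1l6, a ferlin, at 704.6 and 107 CPM. Muc3, a membrane mucin of the brush border and a colonocyte marker, was at 330.7 and 26.75 CPM. It was at 1036 CPM outside the gate of the germ-free pool. AW112010, Rfk, Bcas3, Gal3st2c and Sycn completed the 10 largest increases. Gcnt3 and B4galnt2, an enzyme that adds N-acetylgalactosamine to glycans, were the 2 of 11 measured O-glycosylation genes called, both higher. The list is too short to be read against the 7.61% called higher over all genes. Ano1, a calcium-activated chloride channel, was higher, on 4 UMI in the other goblet-gated cells, and lost its call in 7 of 13 alternatives, among them leaving out cell set 3 (2.04).

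Spink4 had a lower sum in germ-free mucus goblet cells, at 1107 CPM against 3866 CPM in other goblet-gated cells of cell set 4. It kept its call in all 13 alternatives. The typical cell differed less than the sums. In the units of the gate sum, median Spink4 levels were 7.565 in mucus goblet and 7.182 in other goblet-gated cells of the pool. In cell set 4 they were 5.317 and 7.284, with upper quartiles of 9.283 and 54.63. Thinned to 1000 UMI, 65.57% of mucus goblet and 66.67% of other goblet-gated cells of the pool had a Spink4 UMI. Creb3l1, Herpud1 and Pdia6, genes of secretion and the unfolded protein response, were lower among 13 measured, of which 2 were above 0. The list is too short to be read against the 3.06% called lower over all genes. Creb3l1 was at 167.8 CPM in mucus goblet and 454.8 CPM in other goblet-gated cells, and Herpud1 at 119.8 and 347.8 CPM. Pdia6, at 129.4 and 334.4 CPM, had a log2 ratio of 0.11 after thinning in place of -1.05. Ptma, Hmgb2, Hmgb1, Tubb4b, Copa, Slc35a3 and Mycbp2 were lower too. A single cell held 59.23% of Ptma, 82.05% of Hmgb2 and 65.79% of Hmgb1 UMI in the other goblet-gated cells, and without the top cell of each group the log2 ratios of Hmgb2 and Hmgb1 were -0.47 and -0.51.

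Against all other kept cells of the same pool, mucus goblet cells had 274 genes higher (6.96%) and 232 lower (5.89%) of 3939 in the germ-free pool, and 240 higher (6.28%) and 221 lower (5.79%) of 3819 in the antibiotic pool. Fer1l6, Spink1, Tff3, Bcas1, Sval1, Rep15 and Sytl2 were among the 10 largest increases in both pools. Sytl2, which tethers Rab27 vesicles to the membrane, was at 490.2 CPM in germ-free mucus goblet cells and 17.58 CPM in all other cells, and at 302.1 and 13.19 CPM in the antibiotic pool. Sval1 was at 4886 and 167.9 CPM in the germ-free pool, and at 2014 and 91.29 CPM in the antibiotic pool. Mptx1, a pentraxin, was among the 10 in the germ-free pool, at 13660 CPM in mucus goblet cells and 802.7 CPM elsewhere.

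Of measured goblet products outside the rule, 6 of 7 were higher in the germ-free and 7 of 8 in the antibiotic pool; Wfdc2 was lower in the antibiotic pool. Of O-glycosylation genes, 11 of 20 and 12 of 22 were higher, and 1, B4galnt3, was lower in the germ-free pool. Of secretion and unfolded protein response genes, 12 of 31 and 11 of 29 were higher and none was lower. Xbp1, Ern2, Creb3l1, Pdia3, Pdia5, Pdia6, Kdelr2, Lman1 and Mia3 were in both counts. Atoh1, Spdef, Foxa3 and Hes6 were called higher among regulators in the antibiotic pool. In the germ-free pool these 4 were under the filter on low values.

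Of measured ion transport genes, 3 of 10 were higher and 5 lower in the germ-free pool, and 4 of 11 were higher and 4 lower in the antibiotic pool. Slc12a2, Atp2c2 and Atp2a3, a chloride cotransporter and a pair of calcium pumps, were higher in both pools. Car1, a carbonic anhydrase, was at 498.2 CPM in germ-free mucus goblet cells against 3801 CPM in all other cells, and at 364.3 and 7566 CPM in the antibiotic pool. Slc26a3, Slc9a3, Slc9a2 and Slc4a4, which exchange or carry chloride, protons, sodium and bicarbonate, were lower in both pools. Krt20 and Dmbt1 were lower in both pools as well, so Krt20 lay between the other goblet-gated cells and the rest of the epithelium in the antibiotic pool.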

How the data were processed

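Single cells of 1 germ-free and 1 antibiotic pool were analysed; control mice and barcode libraries were not analysed here. The authors deposited 1 matrix of 32285 genes and 4183 cells as natural log values of (counts per 10000 UMI + 1), as the values themselves show. Cell Ranger 7.0.0, kallisto, bustools and mm10 are named without roles, per the submitters' processing notes, which give no cell filters. Whole UMI were recovered: 100% of 9481333 nonzero values were whole within 0.01.

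UMI were summed per cell set and pool and scaled to CPM, with 10 CPM added before log2, in Python 3.11.15 with pandas 2.3.3 and NumPy 2.4.6; intervals came from SciPy 1.17.1. Calls needed 50 UMI, 50 CPM, a 2-fold difference and 1 direction over cell sets of at least 10 cells. What a cell set number stands for is not given, and cell sets of a pool are not replicates, so nothing was tested. All intervals are exact (95%). Scrublet (Scanpy 1.11.5) marked 23 of 4183 cells as doublets (0.55%), 4 of them germ-free mucus goblet cells; all were kept. The calling steps were run on simulated counts with known changes, drawn from a shared profile for all cells. Such counts lack differences between single cells, so the run does not cover calls that rest on 1 cell. Gene symbols matched GENCODE for 31424 of 32285 genes.

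Named genes were up to 10 per direction and comparison by size of difference, up to 4 per gene list by level, the markers and the genes of the rule; other called list members were named after their values were seen. One gene that this rule names is not reported here. The cells, lists and rules were chosen with earlier results of these data known. The alternatives were a gate of 100, stricter cells (1000 UMI, at most 15% mitochondrial UMI), other scaling, per-cell means, thinning, a pseudocount of 1, other gene filters, doublets left out and each cell set left out. Leaving out shared barcodes, top cells or the Zg16-rich cell was chosen after seeing the data.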

Additional observations from a re-analysis of the deposited data

How the results depend on the processing

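Counts of called genes depended on the settings, and the cause was not tested except where the setting itself sets the count, as the gene filters do. Germ-free over antibiotic gave 64 higher and 95 lower genes. The higher count was 33 with stricter cells, 184 with per-cell means, 31 with cells thinned to 1000 UMI, 34 with a filter of 100 UMI and 100 CPM and 244 with a filter of 1 UMI. The lower count was 173 with per-cell means, 17 thinned, 34 with the strict filter and 353 with a filter of 1 UMI. Leaving out 1 cell set gave 45 to 215 higher and 64 to 517 lower genes, the highest of each without germ-free cell set 4. Between mucus goblet and other goblet-gated cells of the germ-free pool, the 82 higher genes became 15 thinned, 31 with the strict filter, 1312 with a filter of 1 UMI and 65 without cell set 3. The 33 lower genes became 19 with median-of-ratios scaling, 20 with totals without mitochondrial and rule genes, 62 with per-cell means, 13 thinned, 14 with the strict filter, 2082 with a filter of 1 UMI and 28 without cell set 3. In the antibiotic pool the 105 higher genes became 12 thinned, 62 with the strict filter, 177 with a filter of 1 UMI, and 95 to 161 with 1 cell set left out, the highest without cell set 1. The 118 lower genes became 223 with per-cell means, 24 thinned, 64 with the strict filter, 239 with a filter of 1 UMI, and 88 to 240 with 1 cell set left out, the highest without cell set 3. Against all other cells of the germ-free pool, the 274 higher genes became 178 with stricter cells, 137 thinned, 174 and 450 with the filters, and 64 to 283 with 1 cell set left out, the lowest without cell set 4. The 232 lower genes became 124 and 562 with the filters, and 183 to 263 with 1 cell set left out. In the antibiotic pool the 240 higher genes became 361 at a gate of 100, 155 with the strict filter, and 248 to 321 with 1 cell set left out. The 221 lower genes became 364 at a gate of 100, 460 thinned, 147 with the strict filter, and 211 to 310 with 1 cell set left out.

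The germ-free share of kept cells was 20.1% with stricter cells in place of 9.6%, and 8.7% to 11.6% with 1 cell set left out. The germ-free share of gated cells was 93.0% at a gate of 100 in place of 82.1%, and 76.9% to 92.3% with 1 cell set left out. The antibiotic share of kept cells was 1.22% at a gate of 100 in place of 2.3%, and 2.08% to 2.57% with 1 cell set left out. The antibiotic share of gated cells was 65.5% at a gate of 100 in place of 39.8%, and 35.9% to 42.6% with 1 cell set left out. Germ-free shares were above antibiotic shares under each of these settings.

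Among named genes with a call, 4 turned the sign of their log2 ratio when all cells were thinned to 1000 UMI. Aqp4, an aquaporin, did so between the goblet groups of the antibiotic pool (-1.62). Hmgb1 (1.36) and Pdia6 (0.11) did so between those of the germ-free pool. C1galt1c1, the chaperone of core 1 synthase, did so against all other germ-free cells (-0.09). Sign changes of named genes without a call were not counted. Goblet groups had no value at a gate of 100 in either pool, nor in the germ-free pool without cell set 4, since fewer than 10 cells per cell set were left. No paired analysis was possible because each condition is 1 pool and cell set numbers are not replicate numbers. Germ-free depth limits all decreases: in cell set 3 a count of 0 allows up to 74.52 CPM.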
